A study of Mus musculus with 4 samples.

Results

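Steap4 encodes a metalloreductase, and it was examined here with 9 other genes through which macrophages take up, reduce, store and release iron. The 10 genes are Steap3, Steap4, Slc40a1, Slc11a1, Slc11a2, Tfrc, Fth1, Hmox1, Cp and Ireb2, found by symbol among the 24625 genes of the count tables. Steap4 was selected on its difference between diets in these same libraries, and the others were added for their roles in iron handling with those results known. Their diet differences are therefore a description: the calls of the fit over all genes are counted once, beside the background, and nothing is read from them. RNA came from peritoneal macrophages of C57BL/6 mice (C57BL/6J in the design text) that ate standard chow, the control, or a high-fat diet with 60% of its energy from fat, for 12 weeks. Both groups had been given 3% thioglycollate medium into the peritoneum 4 days before the cells were taken, so the macrophages of both diets were elicited by an irritant. Each diet had 2 libraries of RNA depleted of ribosomal RNA. The sources used here do not give the age or sex of the mice or whether a library pooled animals, so p-values measure only the spread between these libraries, which may be technical.

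Macrophages recycle most of the body's iron by digesting old red cells. Transferrin-bound iron enters through the transferrin receptor as ferric iron, a STEAP reductase turns it into ferrous iron in the endosome, and a divalent metal transporter moves it into the cytosol. There it is stored in ferritin or leaves through ferroportin, and a ferroxidase such as ceruloplasmin oxidises it again outside the cell. Heme oxygenase frees iron from heme. Iron regulatory proteins bind hairpins in several of these mRNAs when iron is scarce: at the front of the message they block translation, and in the tail of the transferrin receptor message they prolong its life.

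These hairpins are shown because they link 3 of the 10 genes to the iron sensor Ireb2. The search took a bulged C, 5 paired bases (G-T pairs allowed), a loop of CAGTGN and the 5 pairing bases, in the untranslated parts of GENCODE M21 transcripts (GRCm38). Each line gives 28 bases from 5′ to 3′ as DNA, with the loop in capitals. The 5′ matches of Fth1 and Slc40a1 and 4 matches in the 3′ end of Tfrc were:
Fth1, from base 93 of the transcript: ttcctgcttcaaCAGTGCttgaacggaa
Slc40a1, from base 96: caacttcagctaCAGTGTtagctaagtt
Tfrc, from base 3321: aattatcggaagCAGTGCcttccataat
Tfrc, from base 3700: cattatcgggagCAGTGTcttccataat
Tfrc, from base 3765: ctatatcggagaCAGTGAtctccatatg
Tfrc, from base 3812: aattatcgggaaCAGTGTttcccataat
The base given is that of the bulged C. Such a match lay in the 5′ untranslated part of 0.138% of 22500 coding genes and in the 3′ part of 0.64%. A match is a description of letters, and these libraries measure neither binding by the iron regulatory proteins nor translation. The pattern is strict, so a gene without a match may still hold a hairpin of another form.

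The stretch before the start of Steap4 is shown because its RNA differed most between the diets among the 10 genes. It is the 250 bases upstream of the annotated start, from RefSeq on GRCm38.p6, plus strand, chr5:7960222-7960471, with motif matches in capitals.
Steap4: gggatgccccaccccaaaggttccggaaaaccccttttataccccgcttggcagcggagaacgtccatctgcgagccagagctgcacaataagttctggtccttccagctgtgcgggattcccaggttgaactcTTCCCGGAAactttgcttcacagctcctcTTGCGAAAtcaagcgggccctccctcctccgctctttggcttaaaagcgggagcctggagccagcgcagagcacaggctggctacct
The capitals at position -116 match TTCNNNGAA, the form bound by STAT factors, and those at position -87 match TTGCNNAA, one form bound by C/EBP factors; position -1 is the base before the start. Both strands were searched, and 7.02% and 9.56% of 32851 upstream stretches of this length held the same letters. Among 17 stretches before the members found there, Steap1 and Steap2, the C/EBP letters were in 4, of Cp, Fth1, Steap3 and Steap4. The STAT letters were in 2 of the 17, of Steap2 and Steap4, so neither match is particular to Steap4. TGACNNNGC, part of the NRF2 element, occurred in 10.2% of stretches and not in this window. A loose NF-kB pattern occurred in 45.8% of stretches and is not marked. The RefSeq table held 7 of the 10 genes; Slc40a1, Slc11a2 and Hmox1 were not in it.

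The libraries held 39347347 to 45658551 counts on genes, and every one of the 10 genes had at least 46 counts in each library. All 10 thus passed the filter on low counts in both diets, which kept 12747 genes. Levels are CPM (counts per 1e6 of the TMM-scaled library total), and differences between diets are log2 fold changes, with high-fat as numerator, and carry the standard error (SE) of edgeR's quasi-likelihood fit. Defining macrophage genes were abundant, with summed levels over 8 of them of 25392 to 26490 CPM in control and 19702 to 24104 CPM in high-fat libraries. Most of that sum was Lyz2, at 22930 and 22094 CPM in control and 16399 and 20995 CPM in high-fat libraries. Genes of fat cells and liver cells were near 0, with summed levels over 7 genes each of at most 0.0773 and 0.409 CPM; Lep and Cfd were at 0 in every library, as were Ttr, Serpina1a and Fgb. Of 10 red cell genes, 5 were at 0 in every library, all 4 globin genes among them, and the sum reached at most 0.905 CPM.

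Compared per length, the 10 genes spanned more than 3 orders of magnitude in CPM per kilobase of exon. Fth1 was highest, at 1862 ± 61.8 in control and 1286 ± 136 in high-fat libraries (mean ± SD; every level here has n = 2 libraries a diet). Tfrc followed at 235 ± 3.84 and 228 ± 66.7, then Slc11a1 at 134 ± 9.94 and 140 ± 6.52 and Hmox1 at 81.2 ± 25.4 and 86.9 ± 10.8. The middle of the order was Slc11a2 at 20.3 ± 1.36 and 20.0 ± 0.848, Ireb2 at 13.7 ± 0.544 and 12.9 ± 0.370 and Steap3 at 6.51 ± 0.993 and 7.25 ± 0.479. Slc40a1 stood at 0.655 ± 0.011 with control diet and Cp at 0.367 ± 0.036, and Steap4, at 0.375 ± 0.004, did not differ from Cp beyond the spread of the control libraries. With high-fat diet Steap4 stood at 2.86 ± 0.703, above Cp at 0.603 ± 0.028 and Slc40a1 at 0.455 ± 0.174, whose order reversed by a narrow gap. Other neighbours in the order kept apart in both diets: no library of the lower gene reached a library of the higher gene of the same diet.

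**Figure D1:**
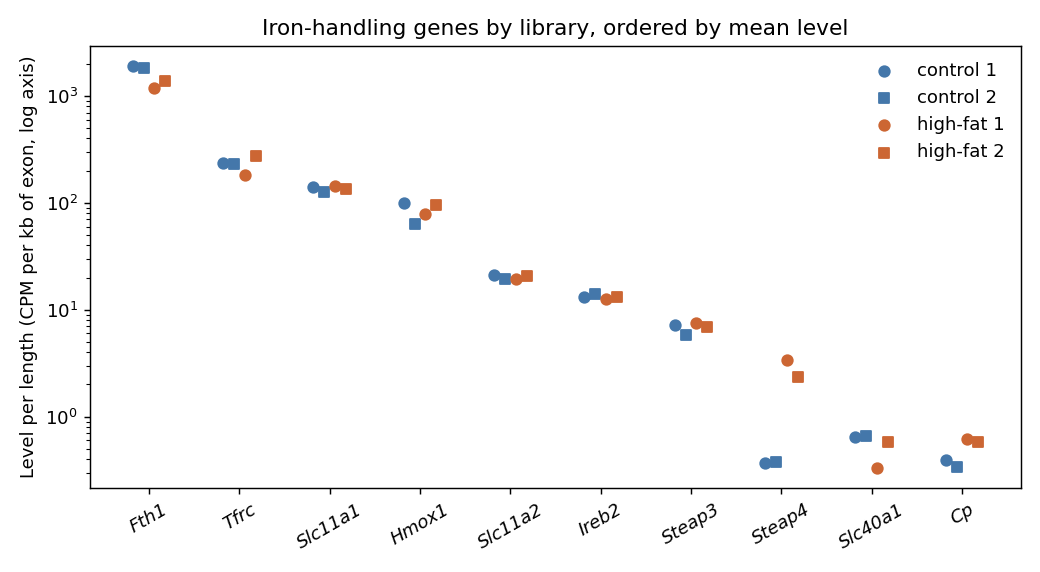
Level per length of the 10 genes (y axis, CPM per kilobase of exon, log axis), ordered by mean level, with 1 point per library: blue for control, orange for high-fat, circle for replicate 1 and square for replicate 2. Steap4 moves from near the floor of the order (0.372 and 0.377) to 3.36 and 2.37, while most other genes keep their place.

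Steap4, whose product reduces ferric iron and copper and is known from fat tissue and inflammation, was low in control macrophages. It lies at chromosome 5, 7960472 to 7982213 (mm9, plus strand, 5 exon blocks). Its level was 1.17 and 1.18 CPM in control replicates 1 and 2, from 47 and 46 counts, and 10.6 and 7.43 CPM in high-fat replicates 1 and 2, from 490 and 297 counts. Both high-fat libraries lay far above both control libraries, which were nearly equal. The log2 fold change was 2.93 ± 0.24 (SE), or 7.64-fold. This is the largest difference of the 10 genes and the one on which the gene was chosen. The difference between the high-fat libraries was 0.50 on the log2 scale, well below the difference between the diets.

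Steap3, the endosomal reductase best known from red cell precursors, did not share this pattern. Its level was 22.9 and 18.4 CPM in control and 24.1 and 22.0 CPM in high-fat libraries, so that the diets overlapped. The log2 fold change was 0.16 ± 0.14, below the difference of 0.31 between the control libraries. Steap3 was the more abundant of the pair in every library.

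The 2 remaining family genes, Steap1 and Steap2, come from a list of other iron genes and lie on chromosome 5 with Steap4; 41753 bases separate them from each other and 2211154 separate Steap1 from Steap4 on mm9. Steap2 had 15 and 4 counts in control and 91 and 37 in high-fat libraries, with a log2 fold change of 2.59 ± 0.59 (edgeR adjusted p = 0.0974). Steap1 had 6 and 9 counts in control and 51 and 21 in high-fat libraries, with 2.09 ± 0.52 (edgeR adjusted p = 0.109). Both were separated by diet in the same direction as Steap4. Neither gene passed the threshold of 0.05 in edgeR with the filter, all 4 libraries and diet as the only term. Neither would have passed the filter on its control libraries alone, so neither could well have come out lower. DESeq2 gave Steap2 an adjusted p of 0.0162 and Steap1 0.179. With 1 library left out the value of Steap2 ran from 1.94 (without high-fat replicate 1) to 3.77 (without control replicate 1), while Steap1 stood at 1.46 with the first high-fat library left out and 2.51 with the second left out. Of the nearest genes that passed the filter, Gtpbp10, on the far side of Steap2, had a log2 fold change of 0.29, and Sri, beyond Steap4, had 0.04. Between Gtpbp10 and Steap2 lie Cfap69, with 0 and 1 counts in control and 3 and 2 in high-fat libraries, and Gm8773, with 2 and 1 and then 11 and 3, both below the filter.

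The genes whose profile over the 4 libraries was most like that of Steap4 were sought by the distance between log2 CPM profiles, each centred on its own mean, among 10944 genes averaging 1 CPM or more. They were Cyp1b1, a cytochrome P450, Pdgfra, a growth factor receptor of fibroblasts, C1s1, a complement protease, and the matrix genes Postn and Bgn. Their distances ran from 0.456 to 0.530, and their log2 fold changes from 2.50 to 2.81. With so few libraries the profile is mostly the step between diets and its size, so this is a description only. By correlation, which ignores size, the 5 nearest genes were all different ones, each with r of 0.999 or more.

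Markers of mesothelial cells and fibroblasts moved with Steap4. In 12 of 15 such genes every high-fat library exceeded every control, and in none was it the reverse. Of the 12 that passed the filter 11 were so separated, against 26.1% of all genes that passed it. The summed level of the 15 was 453 to 462 CPM in control and 586 to 657 CPM in high-fat libraries. None of the 15 was at 0 in every library. Most of that sum was Pdpn. Without Pdpn, a choice made after its values were seen, the other 14 summed to 21.2 to 28.5 CPM in control and 86.4 to 175 CPM in high-fat libraries. Between the high-fat libraries Steap4 was 1.42 times higher in replicate 1, Steap1 2.09 times and Steap2 2.12 times. The same ratio ran from 1.27 (Cyp1b1) to 2.15 (Pdgfra) over the 5 genes most like Steap4. Those 5 were picked by their profiles in these same libraries, so nothing is read from that range. Over the 12 markers that passed the filter the ratio ran from 0.965 (Pdpn) to 5.16 (Msln), 9 of them above Steap4. Of these markers Lum, Col1a1, Wt1, Lrrn4, Dpt and Msln would not have passed the filter on their control libraries alone. Of 8 B cell genes 3 were separated upward, against the same 26.1% of all genes, and the sum of the 8 was 60.4 to 63.1 CPM in control and 64.8 to 163 CPM in high-fat libraries. The part of these cells in the level of the 3 STEAP genes was not tested. In bulk RNA, more cells of a type and more RNA per cell cannot be told apart.

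**Figure D2:**
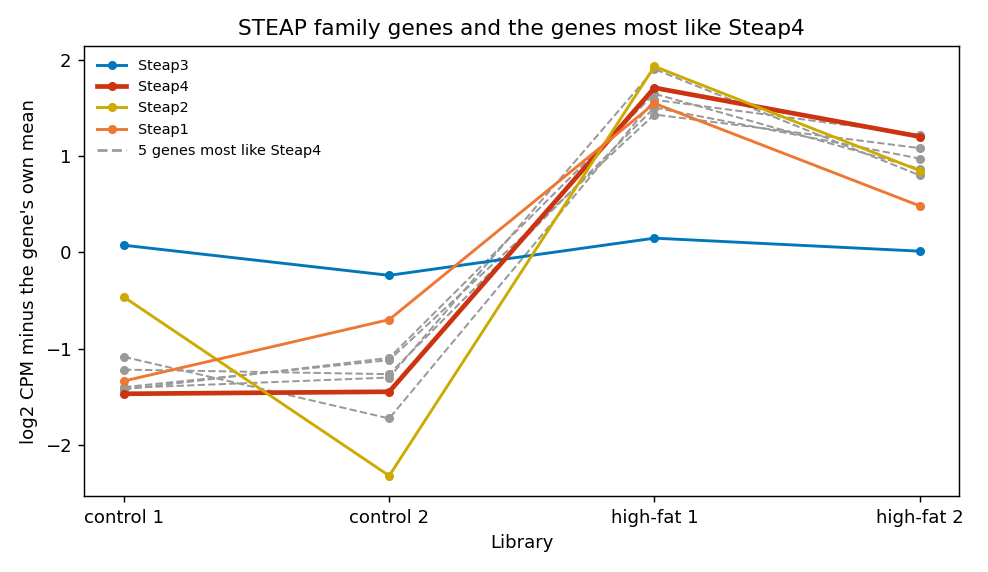
log2 CPM of each gene minus its own mean (y axis) in the 4 libraries (x axis); lines join the values of 1 gene and do not mark an order of replicates. Steap4, Steap1 and Steap2 are higher in both high-fat libraries, as are the 5 genes most like Steap4 (grey), while Steap3 stays near 0.

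The import genes differed little. Tfrc, the transferrin receptor, was at 1167 and 1140 CPM in control and 887 and 1350 CPM in high-fat libraries. The high-fat libraries lay on either side of the controls, 0.61 apart on the log2 scale, and the log2 fold change was -0.04 ± 0.19. It was 0.23 with the first high-fat library left out and -0.38 with the second left out, so the direction depends on 1 library. Slc11a2, the divalent metal transporter DMT1, was at 120 and 109 CPM in control and 109 and 116 CPM in high-fat libraries, with a log2 fold change of -0.02 ± 0.10. Slc11a1, the NRAMP1 transporter of phagosomes known for resistance to intracellular bacteria, was at 324 and 292 CPM and then 333 and 311 CPM, with 0.07 ± 0.10. For these 3 genes the libraries of the diets overlapped. The sign of the last pair also depended on 1 library: Slc11a2 was at 0.04 without control replicate 1 and 0.02 without high-fat replicate 1, and Slc11a1 at -0.0088 without control replicate 2.

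Slc40a1, encoding ferroportin, the iron exporter, was low throughout, with 88 and 87 counts in control and 52 and 78 in high-fat libraries. These are 2.19 and 2.24 CPM against 1.12 and 1.95 CPM. Both high-fat libraries lay below the controls, but the difference between them, 0.78 on the log2 scale, was larger than the log2 fold change of -0.53 ± 0.31. Leaving out high-fat replicate 2 gave -0.98 and leaving out high-fat replicate 1 gave -0.18, so its size rests on replicate 1. Cp, encoding the ferroxidase ceruloplasmin that works beside ferroportin, was at 2.46 and 2.14 CPM in control and 3.90 and 3.65 CPM in high-fat libraries. The diets did not overlap, and the log2 fold change of 0.72 ± 0.22 exceeded the difference of 0.20 between the control libraries. Of its exon bases 108 overlap Hps3, and the sources used here do not say if reads were counted by strand. Cp and Steap4 were thus the genes of the 10 with both high-fat libraries above both controls, and the values of the mesothelial and fibroblast markers given above stand beside Cp as well.

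Fth1, the ferritin heavy chain that oxidises iron for storage, was the most abundant of the 10 in every library. Its level was 2879 and 2747 CPM in control and 1798 and 2088 CPM in high-fat libraries. Both high-fat libraries lay well below both controls, and the log2 fold change of -0.53 ± 0.13 exceeded the differences within diets, 0.07 and 0.22. Fth1 has near-identical processed copies in the genome, so reads shared with them may be missing from its count. Alignments at more than 1 place made up 41.5% and 48.5% of everything counted in control and 37.5% and 42.6% in high-fat libraries. Of 8 general macrophage genes 5 had both high-fat libraries below both controls, against 24.9% of all genes, and none had both above; Cd68 overlapped, with a log2 fold change of 0.14. The part of either in the level of Fth1 was not tested.

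Hmox1, the inducible heme oxygenase, varied more within the control diet than between diets. Its level was 156 and 99.6 CPM in control and 125 and 149 CPM in high-fat libraries. Control replicate 2 was the lowest and control replicate 1 the highest of the 4. The log2 fold change was 0.10 ± 0.23, against 0.65 between the controls, and turned to -0.19 when control replicate 2 was left out and to -0.03 when high-fat replicate 2 was. Ireb2, one of the iron regulatory proteins, was at 77.1 and 81.5 CPM and then 73.7 and 76.7 CPM, a log2 fold change of -0.08 ± 0.09. Its libraries did not overlap, but the gap between diets was smaller than the spread within either. With the GC and length trend removed the value was -0.19.

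**Figure D3:**
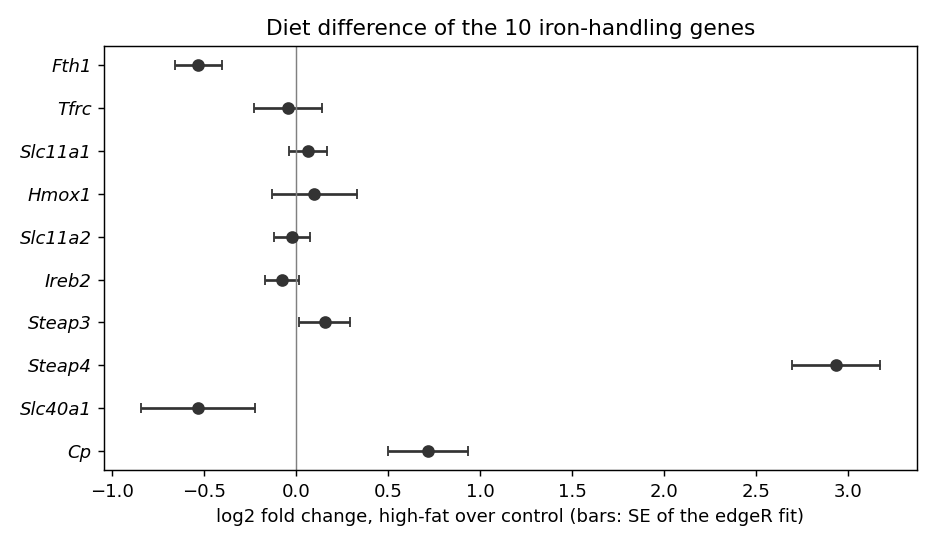
log2 fold change of each of the 10 genes, high-fat over control (x axis), with the SE of the edgeR fit as bars. Steap4 stands at 2.93 and Cp at 0.72, Fth1 and Slc40a1 both at -0.53, and the other 6 between -0.08 and 0.16.

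Apart from Steap4, 1 of the 9 genes had both high-fat libraries above the controls, 3 had both below, and 5 overlapped; the median of their log2 fold changes was -0.02. Over all 12747 genes 26.1% were so separated upward and 24.9% downward, with a median of -0.01. By edgeR's quasi-likelihood test over all genes, at an adjusted p of 0.05, Steap4 was called higher and no other of the 10 was called. The same test called 0.612% of all genes, 0.322% higher and 0.290% lower. With control replicate 2 left out Steap4 was no longer called, though its log2 fold change was 2.94. DESeq2 called Steap4 and, as lower, Fth1, among 2.93% of 12499 genes with an adjusted value. The 10 genes were chosen with this comparison known, so nothing is read from these calls.

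The wider path of iron and copper was followed in 69 other genes in 7 lists, also set up with earlier results known. Of these 68 had a gene model and 53 passed the filter. By edgeR 0 of the 53 were called, with 16 (30.2%) below 0.05 before adjustment, against 17.0% of all genes. DESeq2 called 1 higher and 3 lower, against 2.93% of 12499 genes with an adjusted value. The median log2 fold change was -0.05, with 23 above 0 and 30 below. Of the 53 genes 14 were separated upward and 17 downward, against 26.1% and 24.9% of all genes. With no filter on low counts edgeR called 5 of 64, Steap1, Steap2, Hp, Alas1 and Atox1, against 522 of all 17380 genes then tested. Fits without 1 high-fat library assume that the lone library varies like those of the other diet. Their calls are not listed here.

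**Figure D4:**
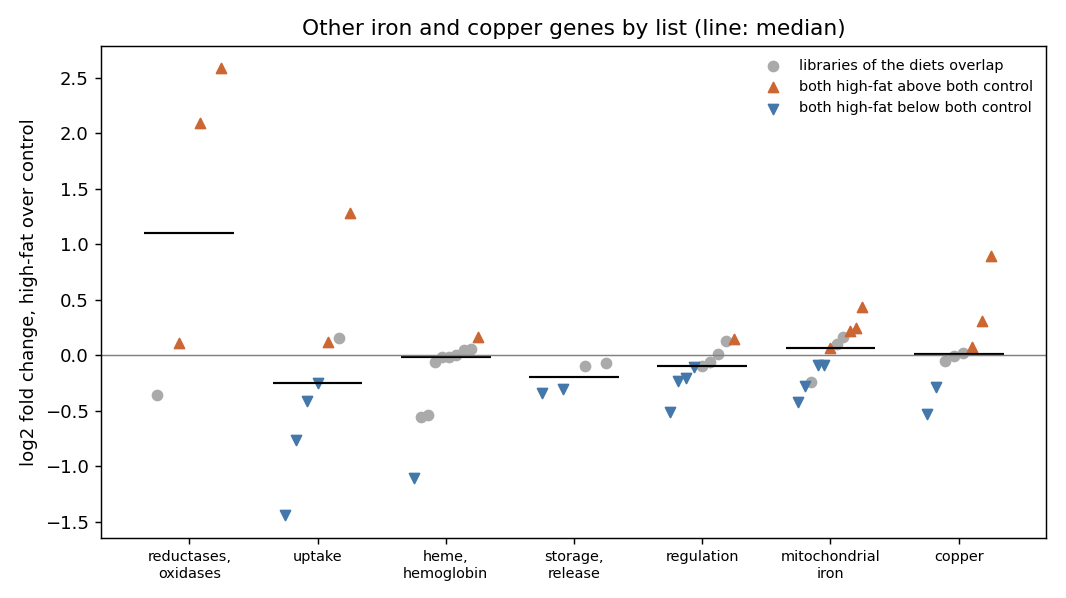
log2 fold change, high-fat over control (y axis), of the 53 iron and copper genes that passed the filter, in their 7 lists (x axis), with each list's median as a line. Upward triangles have both high-fat libraries above both controls and downward triangles both below; Steap2 and Steap1 stand apart at 2.59 and 2.09.

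Among the other reductases and oxidases, 4 of 6 passed the filter. Frrs1, a ferric reductase, was at 76.9 and 83.1 CPM by diet mean and Cybrd1, the duodenal reductase, at 1.47 and 1.15 CPM, neither called. Heph, the membrane ferroxidase related to Cp, did not pass the filter with 3 and 4 counts in control and 15 and 10 in high-fat libraries.

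All 4 storage and release genes that passed the filter lay below 0 before any library was left out, with a median of -0.20 and none called. Ftl1, the ferritin light chain, averaged 3334 CPM in control and 2638 CPM in high-fat libraries (log2 fold change -0.34 ± 0.13, edgeR adjusted p = 0.254), and like Fth1 it has processed copies. Pcbp2, an iron chaperone, had -0.30 ± 0.10, and its exons overlap Map3k12. Pcbp1, another chaperone, and Ncoa4, the receptor that sends ferritin to the lysosome, had -0.09 and -0.07 with overlapping libraries. Both turned to 0.03 with 1 high-fat library left out, replicate 1 for Pcbp1 and replicate 2 for Ncoa4, which was also at 0.01 without control replicate 2.

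Of the uptake genes, 7 of 11 passed the filter and none was called. Trf, encoding transferrin, averaged 667 CPM in control and 501 CPM in high-fat libraries (-0.41 ± 0.13, edgeR adjusted p = 0.176). The iron-binding neutrophil proteins Ltf and Lcn2 had log2 fold changes of -1.44 and -0.76. Ltf, at 5 counts in high-fat replicate 2, ran from -0.83 without that library to -2.66 without high-fat replicate 1, and Lcn2 from -0.46 without control replicate 1 to -1.01 without control replicate 2. Beside them, 11 neutrophil markers summed to 90.1 to 93.1 CPM in control and 55.4 to 58.2 CPM in high-fat libraries. Elane was at 0 in every library. Most of the difference lay in Csf3r, at 41.0 and 25.4 CPM by diet mean, and Mmp9, at 19.8 and 7.13 CPM. Of the 7 markers that passed the filter 4 were separated downward, against 24.9% of all genes, while S100a8, S100a9 and Cxcr2 overlapped. The part of neutrophils in the levels of Ltf and Lcn2 was not tested. Timd2, a ferritin receptor in mice, had 1.28 ± 0.52 from 6 and 11 counts in control and 18 and 27 in high-fat libraries. It would not have passed the filter on its control libraries alone, so it could not well have come out lower.

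Genes for heme and hemoglobin gave 10 of 12 past the filter and 0 called. Hp, the hemoglobin scavenger haptoglobin, averaged 5.41 CPM in control and 2.52 CPM in high-fat libraries (-1.11 ± 0.23, edgeR adjusted p = 0.0661, DESeq2 adjusted p = 0.0139). Hp is also made in the neutrophil line, so the neutrophil values above stand beside it. Cd163, the receptor for haptoglobin-hemoglobin complexes, and Lrp1, a receptor for hemopexin-heme complexes, had -0.56 ± 0.36 and -0.54 ± 0.31, with overlapping libraries. Without control replicate 1 they were at -0.13 and -0.15; Cd163 was at -1.09 without high-fat replicate 2 and Lrp1 at -0.84 without control replicate 2. Hmox2, the constitutive heme oxygenase, had 0.17 ± 0.09; its exons overlap Cdip1.

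Iron regulation and mitochondrial iron gave 20 genes past the filter and none called. Epas1, encoding HIF-2 alpha, had -0.52 ± 0.16 (edgeR adjusted p = 0.180), Bmpr2 -0.21, Hfe -0.23 and Fbxl5, which marks Ireb2 protein for breakdown, 0.14, the last turning to -0.0012 with the GC and length trend removed. The hepcidin genes Hamp and Hamp2 had at most 1 count per library. Alas1, the first enzyme of heme synthesis, averaged 339 CPM in control and 254 CPM in high-fat libraries (-0.42 ± 0.11, edgeR adjusted p = 0.112, DESeq2 adjusted p = 0.0225). Glrx5, of iron-sulfur cluster assembly, had 0.43, and the mitochondrial iron importer Slc25a37 had 0.25.

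Copper genes were listed because STEAP reductases also act on copper and ceruloplasmin carries it. Atox1, the copper chaperone that feeds the secretory path, averaged 60.3 CPM in control and 41.7 CPM in high-fat libraries (-0.53 ± 0.11, edgeR adjusted p = 0.0684, DESeq2 adjusted p = 0.00685). The metallothionein genes Mt2 and Mt1 had 0.89 ± 0.30 and 0.31 ± 0.13, and the chaperone gene Ccs had -0.29. None of the 8 genes past the filter was called by edgeR.

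A list of 10 genes held regulators of Steap4 in other cells and parts of their signalling paths. None was called by edgeR, with 2 below 0.05 before adjustment, nor by DESeq2. Il6 had 5 and 5 counts in control and 21 and 37 in high-fat libraries, a log2 fold change of 2.41 ± 0.55 (edgeR adjusted p = 0.0898), and passed the filter through its high-fat libraries. Il6 would not have passed the filter on its control libraries alone, so it could not well have come out lower. Its value was 2.84 when the first high-fat library was dropped and 1.81 when the second was dropped. With no filter on low counts edgeR called Il6 (adjusted p = 0.0154), among 522 of all 17380 genes then tested. The IL-6 receptor genes Il6ra and Il6st had -0.35 and -0.28, and Socs3, a STAT3 target, had 0.44. Stat3 itself averaged 54.1 and 48.2 CPM, and Cebpa, whose family matches the letters at position -87, 45.7 and 43.1 CPM. High-fat replicate 2 had more Il6 counts than replicate 1, the reverse of Steap4. Whether Il6 or any other gene of this list bears on the level of Steap4 was not tested.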

How the data were processed

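The authors deposited 1 table per library of unnormalized gene counts and the mm9 gene models behind them. TopHat2 2.0.10, Cufflinks 2.1.1, HTSeq and mm9 are named, per the submitters' processing notes. Counts on rows that name no gene, 52.5% to 62.8% of everything counted, were left out. Replicates differed beyond sampling noise (chi-square per degree of freedom 33.8 and 34.9).

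Genes were kept by filterByExpr (minimum count 10, minimum total 15). Diets were compared with edgeR 4.0.16 (quasi-likelihood, robust, TMM, diet as the only term, 2 residual degrees of freedom), with Benjamini-Hochberg adjustment over all kept genes and a threshold of 0.05. The SE was taken as the absolute log2 fold change divided by the root of F. The fit was tested on simulated data. Alternatives were other filters, size factors, DESeq2 1.42.0, limma-voom (limma 3.58.1), non-robust fitting, a replicate block, each library left out and, added after seeing the data, a GC and length correction. Log2 CPM for profiles used a prior count of 2; levels per length used the union of exons. Members and lists were chosen with earlier results of these data known. Besides the 10 genes, those named are any list gene past the threshold, the 4 of smallest p per list and the 5 most like Steap4, Slc40a1 and Hmox1; others (Steap neighbours Gtpbp10 and Sri, Heph, Hamp, Hamp2, Stat3, Cebpa and single markers) were chosen after their values were seen. Of the genes this rule names, 1 is not reported here.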

Additional observations from a re-analysis of the deposited data

How the results depend on the processing

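The precision is limited by 2 libraries per diet. Of all genes, 78 were called; the count was 522 with no filter on low counts, 46 with a CPM filter, 366 by DESeq2, 28 by limma-voom and 139 with the GC and length trend removed, a choice added after seeing the data that covered 12148 genes. It ran from 3 (without control replicate 2) to 823 (without high-fat replicate 1) with 1 library left out. Of the 10 genes, 1 was called; this became 2 with no filter and by DESeq2, and 0 to 2 with 1 library left out. Of the 53 iron and copper genes, 0 were called; this became 5 with no filter, 4 by DESeq2, 2 with a replicate block (Steap2, adjusted p = 0.0480, and Atox1, adjusted p = 0.0487), and 0 to 7 with 1 library left out. With the replicate block 113 genes were called in all; it changed the call of none of the 10 genes. Deviations of same-numbered libraries correlated at 0.089 across genes. The labels do not say whether numbers mark a shared animal or day, so it is not known if same-numbered libraries are paired. The log2 fold change of Steap4 ran from 2.66 to 3.16 over all alternatives. Among named genes, Ncoa4 ran from -0.1818 to 0.0299 and Pcbp1 from -0.2223 to 0.0295 with 1 library left out; with the GC and length trend removed Pcbp1 was at 0.0453 and Fbxl5 at -0.0012. Of the 10 genes, Tfrc, Hmox1, Slc11a1 and Slc11a2 changed sign with 1 library left out, and Ireb2 went from -0.0767 to -0.1905 with the GC and length trend removed. The cause was not tested. With the longest transcript as length, 8 of the 10 genes kept their place in the order of levels. By correlation in place of distance, 0 of the 5 genes most like Steap4 stayed.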

Other observations

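The same search for like profiles was made for Slc40a1 and Hmox1. Nearest to Slc40a1 were Idi1, Nradd, Ass1, E230016K23Rik and Cyp51, at distances of 0.091 to 0.15 on the log2 scale. Idi1 and Cyp51 are enzymes of sterol synthesis: Idi1 was at 225 and 234 CPM in control and 126 and 199 CPM in high-fat libraries, and Cyp51 at 302 and 319 CPM and then 164 and 246 CPM. As with Slc40a1, high-fat replicate 1 was the lowest library for both.

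Nearest to Hmox1 were Heg1, Slc7a1, Tacc2, Srf and Sphk1, at distances of 0.023 to 0.087. Srf encodes a factor that binds promoters of early response genes, and it was at 13.5 and 8.91 CPM in control and 11.1 and 12.4 CPM in high-fat libraries. In each of these 5 genes control replicate 2 was the lowest library, as for Hmox1, so the likeness is to a difference between control libraries and not to diet. Both searches are descriptions over 4 libraries, with no test.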
